A study of Mus musculus with 12 samples.

Results

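Among the 19547 genes measured in mouse fat grafts, 29 genes were high in the same 3 of 12 libraries, and nearly all of them are best known from skeletal muscle fibres. Levels are given as CPM, a gene's count scaled by the total count of its library. The genes were chosen by these measured levels: a gene was taken when it was protein-coding, had a mean of at least 1 CPM over the 12 libraries, and had its lowest CPM in CAL replicate 1, CAL replicate 2 and CAL_Dll4i replicate 3 at least 3 times above its highest CPM in the other 9 libraries. Of the 14873 protein-coding genes, 13380 had a mean of at least 1 CPM, and 29 of these (0.217%) met the rule. The high level in these 3 libraries therefore chose the genes, is given below as a description, and carries no test.

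The series profiled RNA from fat grafts at 8 weeks after grafting, in 3 groups of 4 libraries. All libraries came from adipose tissue of wild type C57BL/6 mice aged 16 weeks. The control group held fat grafts alone, the CAL group (cell-assisted lipotransfer) held grafts with added ASC (stromal or stem cells of adipose tissue, as the abbreviation is commonly read), and the CAL_Dll4i group held grafts with the same cells and inhibition of Dll4, a Notch ligand of the endothelium. How Dll4 was inhibited, where the grafts were placed, what tissue was taken with them, and whether each library came from its own animal are not given in the sources used here, so a p-value here covers the spread among libraries, which may be technical. Total counts ran from 55883051 to 70804141 per library. The 3 libraries held 55883051 (CAL replicate 1), 56220771 (CAL replicate 2) and 64254132 (CAL_Dll4i replicate 3) counts, so both CAL libraries had smaller totals than any of the other 9, which held 58360276 to 70804141. The share of this difference in the results was not tested. The 10 genes of an adipocyte list summed to 808 to 2595 CPM per library. Every gene of the data set had counts in every library, so their presence checks no label.

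Skeletal muscle fibres contract through sarcomeres, repeated units in which thick filaments of myosin slide along thin filaments of actin between Z-discs. Titin spans from the Z-disc to the middle of the thick filament and works as a spring, and nebulin runs along the thin filament. A nerve impulse opens the calcium channel of the transverse tubule, which opens the ryanodine receptor of the sarcoplasmic reticulum. The released calcium binds troponin and frees the thin filament for myosin, and a calcium pump then returns the calcium to the store. Fast and slow fibres build many of these parts from different isoforms, of which only some were measured here.

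Promoter sequences are shown for 4 of these genes because the same 6-letter word, CAGCTG, recurs in them. CAGCTG is a form of the E-box, the class of site bound by the MyoD family of muscle transcription factors. RefSeq (GRCm38.p6) windows of 300 bases, from 250 before to 50 after a start site, were found for 20 of the 29 genes. The 250 bases before the start site are printed 5′ to 3′ on the gene's strand, in lower case with CAGCTG in capitals, for the 4 genes with the highest mean CPM among those that hold the word.
Atp2a1: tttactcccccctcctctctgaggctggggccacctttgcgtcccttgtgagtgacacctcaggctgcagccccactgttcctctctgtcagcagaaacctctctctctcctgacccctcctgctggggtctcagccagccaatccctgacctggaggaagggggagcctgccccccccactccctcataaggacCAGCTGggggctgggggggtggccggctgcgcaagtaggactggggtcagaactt
Acta1: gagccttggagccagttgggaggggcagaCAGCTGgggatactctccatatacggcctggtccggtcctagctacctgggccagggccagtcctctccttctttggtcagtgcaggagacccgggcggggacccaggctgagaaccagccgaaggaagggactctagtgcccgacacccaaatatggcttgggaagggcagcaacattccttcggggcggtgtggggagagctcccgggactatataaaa
Pygm: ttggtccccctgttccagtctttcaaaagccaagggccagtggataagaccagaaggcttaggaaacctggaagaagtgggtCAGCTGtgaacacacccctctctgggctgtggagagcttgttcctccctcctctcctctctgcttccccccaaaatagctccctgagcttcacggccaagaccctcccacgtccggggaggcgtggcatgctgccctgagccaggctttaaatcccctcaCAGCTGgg
Mylpf: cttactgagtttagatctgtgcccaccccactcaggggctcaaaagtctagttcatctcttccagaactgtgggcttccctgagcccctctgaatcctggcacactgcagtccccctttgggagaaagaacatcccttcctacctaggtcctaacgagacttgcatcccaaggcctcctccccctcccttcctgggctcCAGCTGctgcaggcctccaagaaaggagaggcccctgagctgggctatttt
The windows printed lie at chr7:126463074-126463323 on the minus strand for Atp2a1, chr8:123894776-123895025 on the minus strand for Acta1, chr19:6384158-6384407 on the plus strand for Pygm and chr7:127211358-127211607 on the plus strand for Mylpf. The word begins at position -55 from the start site in Atp2a1, at -221 in Acta1, at -168 and -8 in Pygm and at -51 in Mylpf.

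CAGCTG, which reads the same on both strands, stood in the windows of 11 of the 20 genes found (55%), against 18.3% of the windows of all 27025 RefSeq genes of the table and 18.2% of those of the 11832 protein-coding genes of this data set that were found. Besides the 4 genes printed, these were Mybpc1, Myl1, Casq1, Klhl41, Cacna1s, Rbfox1 and Apobec2. The CArG box, the site of serum response factor, stood in 3 of 20 windows (15%), those of Acta1, Myom1 and Ldb3. It stood in 1.81% of all genes and 1.69% of the same protein-coding genes. In the same order, CACCTG, another E-box, was in 30% against 22.6% and 21.0%. CATTCC, the core of the TEAD site, was in 25% against 16.6% and 14.7%. TATAAA was in 20% against 15.7% and 9.87%, and TATTTTTA, a core of the MEF2 site, in 5% against 3.09% and 1.62%. Each was sought on either strand. A TATAAA can lie inside a CArG box, and the other words can share letters only at their ends. These are matches of letters and not measured binding, and a word missing from a window says only that its letters are not there.

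Summed over the 29 genes, the 3 libraries stood far above the rest, as the rule fixed. The genes took 0.296% of all counts in CAL replicate 1 (exact Clopper-Pearson 95% interval 0.295% to 0.297%), 0.481% in CAL replicate 2 and 0.757% in CAL_Dll4i replicate 3, and 0.0104% to 0.0308% (median 0.0192%) in the other 9. Intervals cover counting error only. Titin (Ttn) alone gave 67.5% to 71.2% of these counts in the 3 libraries, because its transcript is by far the longest. On TPM, a value deposited by the authors that is scaled for transcript length as well as depth, Ttn was 6.25% to 8.08% of the summed level of the 29 genes there. That summed TPM was 579, 973 and 1787 in the 3 libraries and 25.1 to 64.1 in the 9. Because the samples are bulk tissue, more muscle cells and more RNA per muscle cell cannot be told apart in any of these values.

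**Figure D1:**
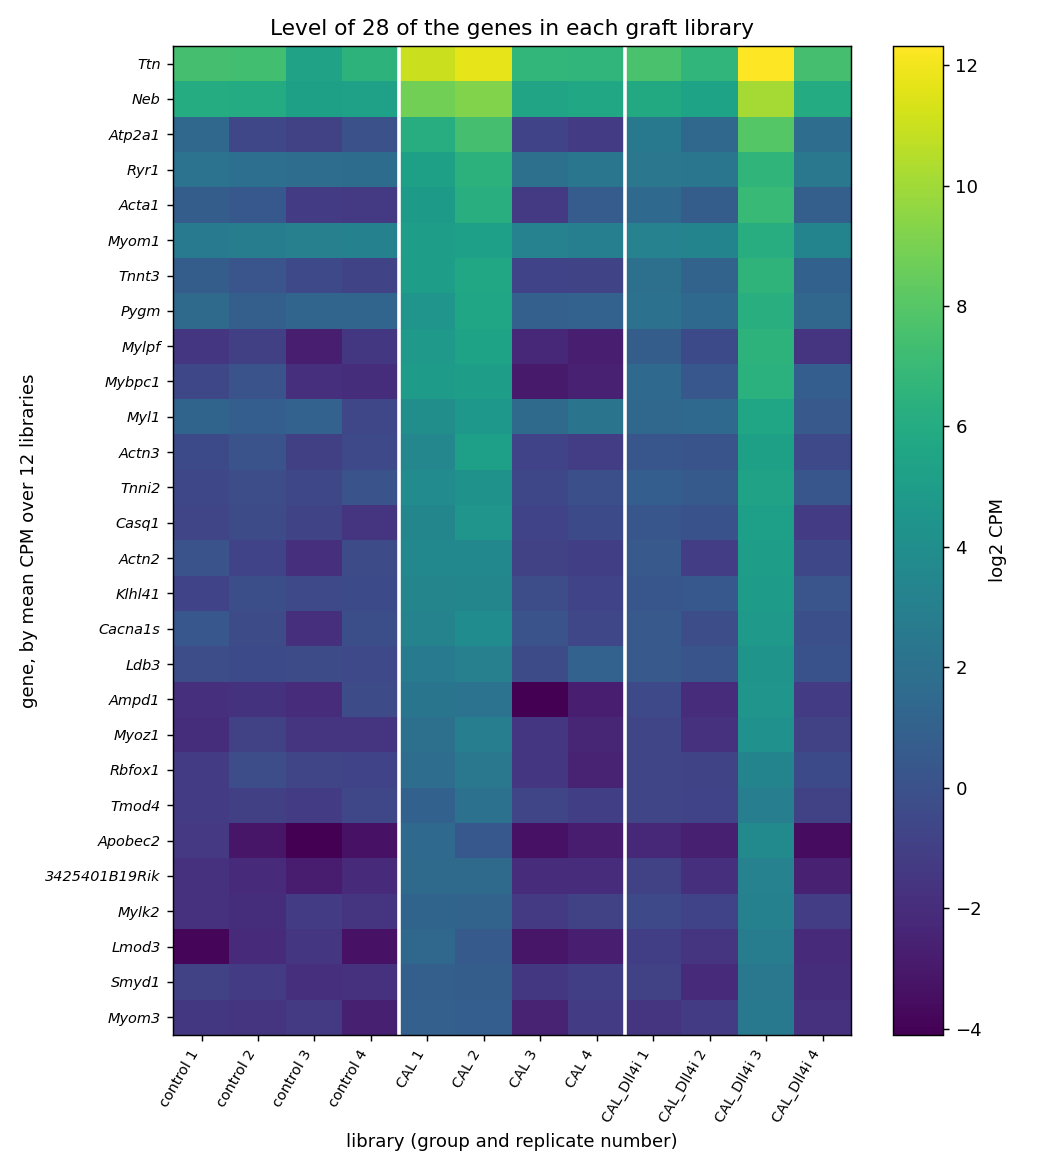
Level of 28 of the 29 genes (rows, ordered by mean CPM) in each of the 12 libraries (columns, with white lines between groups), as log2 CPM by colour. The columns of CAL 1, CAL 2 and CAL_Dll4i 3 are brighter than the other 9 in every row, which the rule fixed, and CAL_Dll4i 3 is the highest of them in all 28 rows.

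The thick filament list held 20 genes, 8 of them measured, and 6 were among the 29. Mylpf, the regulatory light chain of fast skeletal myosin, had the widest gap of all: its lowest value in the 3 libraries was 15.3 times its highest in the 9. Its levels were 0.360, 0.504, 0.152 and 0.374 CPM in control replicates 1 to 4, 26.1, 43.5, 0.204 and 0.153 CPM in CAL replicates 1 to 4, and 1.70, 0.737, 90.1 and 0.339 CPM in CAL_Dll4i replicates 1 to 4. CAL replicates 3 and 4 and CAL_Dll4i replicate 4 were at the level of the controls, CAL_Dll4i replicates 1 and 2 were above every control, and the 3 high libraries were far above all of these. Mybpc1, the slow-type myosin-binding protein C of skeletal muscle, read 0.685, 1.06, 0.274 and 0.259 CPM in controls, 30.6, 33.8, 0.131 and 0.169 CPM in CAL, and 2.84, 1.29, 84.3 and 1.75 CPM in CAL_Dll4i. Its low CAL libraries were the lowest of all 12, below every control.

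Myl1, the essential light chain of fast myosin, was 15.8, 24.7 and 46.0 CPM in the 3 libraries and 0.647 to 4.60 CPM (median 2.30) in the 9. Its highest value outside the 3 was in CAL replicate 4, whose median rank among the 9 over the 29 genes was 6. Myom1, a myomesin that ties thick filaments together at the M-line, was 33.8, 36.0 and 69.8 CPM against 6.63 to 9.70 CPM (median 8.68), one of the smaller gaps, at 3.48-fold. Its relative Myom3 was 1.93, 1.76 and 5.76 CPM against 0.158 to 0.439 CPM. Mylk2, the kinase that phosphorylates skeletal myosin light chain, was 2.27, 2.17 and 8.53 CPM against 0.260 to 0.718 CPM. The 2 measured thick filament genes outside the 29 were the slow myosin Myh7 and the embryonic myosin Myh3.

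The thin filament list gave 7 of the 29 genes out of 14 measured and 19 listed. Acta1, the actin of the skeletal thin filament, was 1.70, 1.35, 0.441 and 0.402 CPM in controls. It was 29.2, 73.8, 0.408 and 1.59 CPM in CAL, and 2.83, 1.66, 125 and 1.84 CPM in CAL_Dll4i. The 2 low CAL libraries lay inside the range of the controls. Tnnt3, the troponin T of fast fibres that anchors the troponin complex, was 1.68, 1.17, 0.730 and 0.589 CPM in controls, 32.7, 50.5, 0.583 and 0.598 CPM in CAL, and 3.84, 2.20, 96.5 and 2.02 CPM in CAL_Dll4i. Here every CAL_Dll4i library was above every control.

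Tnni2, the inhibitory troponin of fast fibres, was 13.9, 19.8 and 42.0 CPM in the 3 libraries and 0.685 to 1.72 CPM (median 0.935) in the 9. Tnni2 (chr7:142441816-142444410) and Tnnt3 (chr7:142498771-142516213) lie close together in the RefSeq annotation of GRCm38.p6. Nebulin (Neb), the ruler of the thin filament, was 450.0, 595 and 1080.5 CPM against 37.1 to 67.4 CPM (median 52.5). The low libraries thus kept a sizeable Neb count, and on TPM the median of the 9 was 5.52, second among the 29 genes after Myl1 at 6.08. Klhl41, a kelch protein that stabilises nebulin, was 10.1, 10.8 and 30.02 CPM against 0.565 to 1.35 CPM. Tmod4, which caps thin filament ends, was 2.02, 4.32 and 7.73 CPM against 0.426 to 0.661 CPM, and Lmod3, which nucleates actin filaments, was 2.67, 1.46 and 6.79 CPM against 0.0685 to 0.484 CPM.

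Among the thin filament genes outside the 29, tropomyosins had a smaller gap or none. Tpm2 was 35.6, 49.1 and 109 CPM in the 3 libraries against at most 18.9 CPM in the 9, a gap of 1.89-fold. Tpm1 was 126, 152 and 169 CPM against 97.5 to 125 CPM, and Tpm3, which many cell types express, was 657, 598 and 546 CPM against 508 to 574 CPM. Nrap, an actin-binding protein of the myotendinous junction, had a gap of 2.27-fold.

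At the Z-disc and along titin, 6 of 16 measured genes of a list of 25 were among the 29. Ttn read 176, 159.8, 40.5 and 89.8 CPM in controls, 2079, 3422, 108 and 104 CPM in CAL, and 191, 104, 5106 and 177 CPM in CAL_Dll4i. Even the lowest library, control replicate 3, held 2665 counts of Ttn, so the level in the 9 was measured well. Actn3, the alpha-actinin of fast fibres that crosslinks actin at the Z-disc, was 0.754, 1.07, 0.502 and 0.704 CPM in controls, 11.2, 35.4, 0.569 and 0.460 CPM in CAL, and 1.22, 1.10, 37.0 and 0.734 CPM in CAL_Dll4i. CAL replicate 2 nearly equalled CAL_Dll4i replicate 3 for Actn3, which no other of the 29 genes did as closely.

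Actn2, the alpha-actinin of all skeletal fibres and heart, was 11.6, 11.6 and 32.2 CPM in the 3 libraries against 0.274 to 1.39 CPM. Myoz1, which links calcineurin to the Z-disc of fast fibres, was 3.83, 7.45 and 18.2 CPM against 0.199 to 0.630 CPM. Ldb3, a PDZ and LIM protein of the Z-disc, was 6.50, 8.18 and 21.5 CPM against 0.719 to 2.13 CPM. Of the other Z-disc and cytoskeleton genes, desmin (Des) had a gap of 1.69-fold and Cmya5 of 2.02-fold, while filamin C (Flnc) at 37.7, 59.7 and 60.5 CPM lay within the 32.1 to 88.9 CPM of the 9.

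For calcium release and excitation, 4 of 17 measured genes of a list of 24 were among the 29. Atp2a1 encodes the calcium pump of the fast fibre's store. It was 2.71, 0.666, 0.563 and 0.963 CPM in controls, 69.3, 177, 0.583 and 0.429 CPM in CAL, and 5.70, 2.57, 258 and 3.46 CPM in CAL_Dll4i. The low CAL libraries were among the lowest of the 12 and the low CAL_Dll4i libraries among the highest of the 9. Ryr1, the calcium release channel, was 4.51, 3.74, 3.36 and 3.26 CPM in controls, 38.0, 86.3, 3.82 and 5.14 CPM in CAL, and 5.38, 5.02, 100.04 and 5.65 CPM in CAL_Dll4i.

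Cacna1s, the voltage sensor of the transverse tubule, was 9.39, 14.8 and 26.6 CPM in the 3 libraries against 0.289 to 1.41 CPM. Casq1, the calcium buffer of the fast fibre's store, was 10.7, 22.1 and 36.1 CPM against 0.316 to 1.22 CPM. The channel Scn4a and the store protein Srl fell just under the threshold. Atp2a2, the pump of slow fibres, heart and many other cells, was 498, 515 and 447 CPM in the 3 libraries and 418 to 499 CPM in the 9.

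Of the muscle energy list, 2 of 17 measured and 24 listed genes were among the 29. Pygm, the muscle glycogen phosphorylase, was 2.93, 1.84, 2.40 and 2.43 CPM in controls, 22.1, 46.3, 1.95 and 2.05 CPM in CAL, and 3.99, 2.90, 76.6 and 2.44 CPM in CAL_Dll4i. Ampd1, the AMP deaminase of muscle, was 0.274, 0.309, 0.243 and 0.805 CPM in controls, 4.81, 4.38, 0.0583 and 0.153 CPM in CAL, and 0.704, 0.251, 21.8 and 0.438 CPM in CAL_Dll4i. Unlike Pygm, Ampd1 was no higher in CAL replicate 2 than in CAL replicate 1. Among the other energy genes, beta-enolase Eno3 had a gap of 2.39-fold, Cox6a2, the muscle subunit of cytochrome oxidase, of 2.23-fold and phosphofructokinase Pfkm of 1.37-fold, and the broadly expressed aldolase Aldoa had none.

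The remaining 4 genes were Smyd1, Apobec2, Rbfox1 and 3425401B19Rik. Smyd1, a methyltransferase needed for myofibril assembly, was the 1 of 6 measured genes in the list of myogenic factors and satellite cells, at 1.81, 1.65 and 5.56 CPM against 0.235 to 0.548 CPM. Apobec2, a muscle member of the APOBEC deaminase family, was 0.394, 0.114, 0.0608 and 0.101 CPM in controls, 2.81, 1.35, 0.102 and 0.138 CPM in CAL, and 0.220, 0.157, 12.9 and 0.0847 CPM in CAL_Dll4i. Rbfox1, a splicing factor of neurons, heart and muscle, was 3.44, 5.59 and 10.1 CPM against 0.184 to 0.845 CPM. On TPM, however, Rbfox1 stood at 1.57, 2.62 and 2.41, with CAL replicate 2 the highest, and the reason was not tested. 3425401B19Rik (synonym Cefip, a Z-disc protein) was 2.97, 3.04 and 9.26 CPM against 0.137 to 0.557 CPM.

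The lowest count of any of the 29 genes was 76 in the 3 libraries and 4 in the other 9. The spans of 12 of the 29 genes overlap another RefSeq gene, and 3 overlap a protein-coding one: Atp2a1 with Rabep2, Mylpf with Septin1 and Tmod4 with Vps72. The sources used here do not say whether the counting used strand, so shared reads at such loci cannot be told apart. The 29 genes lie on 14 chromosomes, 5 of them on chromosome 7. In GRCm38.p6 Ttn spans chr2:76703980-76982557, Acta1 chr8:123891758-123894775, Atp2a1 chr7:126445858-126463103, Mylpf chr7:127208848-127214288 and Pygm chr19:6384408-6398464.

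Ranked by deposited TPM, contractile and pump genes led in all 3 libraries. In CAL_Dll4i replicate 3 the order was Mylpf at 278 TPM, Tnnt3 at 215, Acta1 at 196, Atp2a1 at 175, Tnni2 at 135, Myl1 at 126, Ttn at 112 and Neb at 111. CAL replicate 1 held the same 8 genes on top, from Mylpf at 83.0 TPM to Myl1 at 43.8, and so did CAL replicate 2, from Mylpf at 136 to Neb at 61.8. In CAL replicate 2, Atp2a1 (121), Acta1 (118) and Tnnt3 (115) were close to each other. Myom3 was the lowest of the 29 in each, at 0.806, 0.712 and 2.40 TPM. In the 9 libraries the medians were led by Myl1 at 6.08, Neb at 5.52 and Tnni2 at 3.11 TPM, while Mylpf was at 1.05 and Atp2a1 at 0.652.

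The fold of the rule did not use the order of the 3 libraries, but its mean over 12 libraries counted each of them. With CAL_Dll4i replicate 3 left out, 23 genes met the rule, without 3425401B19Rik, Apobec2, Lmod3, Mylk2, Myom3 and Smyd1. For these genes the rule favoured a high level in that library. CAL_Dll4i replicate 3 was the highest for all 29 genes. CAL replicate 2 was second for 23 genes, and CAL replicate 1 was second for the other 6, Ampd1, Apobec2, Mylk2, Lmod3, Smyd1 and Myom3. Each library is 1 sample, so ratios between them carry a 95% interval for counting error only and no test of a condition. CAL_Dll4i replicate 3 over CAL replicate 1 had a median of 3.07 over the 29 genes and ran from 2.07 for Myom1 to 4.75 for Myoz1. CAL_Dll4i replicate 3 over CAL replicate 2 had a median of 1.94. It ran from 1.04 for Actn3, whose interval of 0.984 to 1.11 held 1, to 9.53 for Apobec2 (7.53 to 12.2).

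All 29 genes were high in both CAL libraries, and the ratio between these 2 samples varied from gene to gene. CAL replicate 2 over CAL replicate 1 had a median of 1.55. Over all genes, these 2 libraries also differed far beyond counting error. The squared difference in units of that error had a mean of 64.0, so intervals that exclude 1 are not particular to the 29 genes. The highest ratios were 3.15 for Actn3 (2.88 to 3.45), 2.55 for Atp2a1 (2.46 to 2.65), 2.52 for Acta1 (2.38 to 2.67) and 2.27 for Ryr1 (2.16 to 2.39). The lowest were 0.481 for Apobec2 (0.361 to 0.637), 0.547 for Lmod3 (0.413 to 0.721), 0.909 for Ampd1 (0.762 to 1.08) and 0.911 for Myom3 (0.687 to 1.21). The 2 alpha-actinins parted, with Actn3 at 3.15 and Actn2 at 1.00 (0.897 to 1.12). Subtracting the median level of the 9 libraries first left the picture alike, with a median of 1.57 and a range of 0.459 to 3.30.

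**Figure D2:**
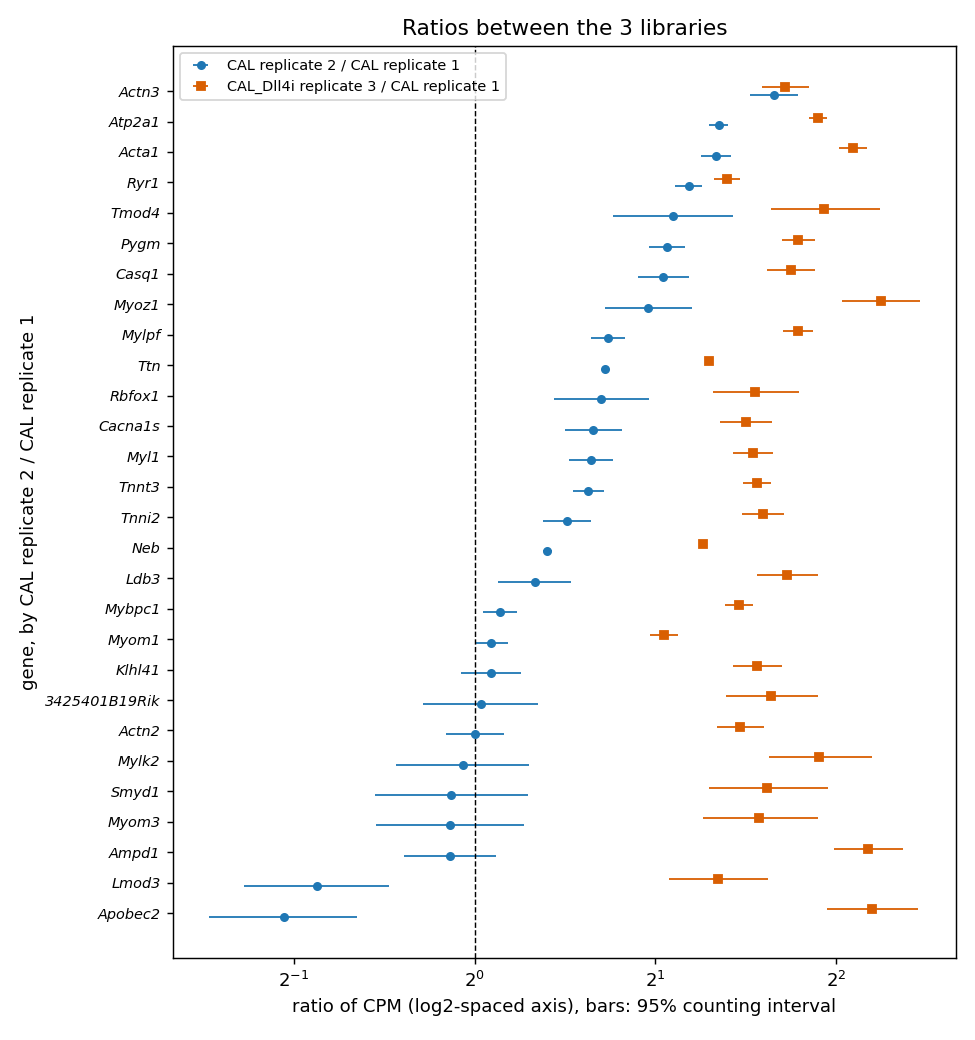
Ratio of CPM between libraries for 28 of the 29 genes (rows, ordered by the ratio of CAL replicate 2 to CAL replicate 1), on a log2-spaced axis with 95% counting intervals as bars, which for Ttn and Neb are narrower than the symbols. Circles, CAL replicate 2 over CAL replicate 1, run from 0.481 to 3.15 on both sides of the dashed line at 1, while squares, CAL_Dll4i replicate 3 over CAL replicate 1, all lie between 2.07 and 4.75.

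Set against the mean of both CAL libraries, CAL_Dll4i replicate 3 was relatively highest for Apobec2 (6.19 times), Ampd1 (4.74), Mylk2 (3.84) and Lmod3 (3.29). It was lowest for Actn3 (1.59), Ryr1 (1.61), Ttn (1.86) and Myom1 (2.00). Apobec2, Mylk2 and Lmod3 met the rule only with CAL_Dll4i replicate 3 counted in the mean, which favoured high ratios for them. Within the same functional class the ratios varied: 2 genes of the energy list stood at 2.24 (Pygm) and 4.74 (Ampd1).

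The fibre type lists were read next. The fast list held 14 genes, of which 8 were measured, and all 8 (Actn3, Atp2a1, Casq1, Myoz1, Mylpf, Myl1, Tnnt3 and Tnni2) were among the 29. The slow list held 12 genes, of which 5 were measured, and none was, although Tnnt1 had all 3 libraries above the 9. Of the slow list, Myl2, Myl3, Tnni1, Myoz2, Csrp3, Ankrd2 and Myh7b were not analysed here. Nor were Myh1, Myh2, Myh4, Tnnc2, Pvalb and Mybpc2 of the fast list, so the lists are incomplete and the fibre type was not tested. Mybpc1, which is outside both lists and is known as the slow type of skeletal myosin-binding protein C, was among the 29 with a gap of 10.8-fold. The summed fast CPM was 183, 380 and 624 in the 3 libraries and 4.97 to 18.7 in the 9. Slow myosin Myh7 was 2.40 CPM (134 counts) in CAL replicate 1 but 0.107 in CAL replicate 2 and 0.0934 in CAL_Dll4i replicate 3, inside the range of the 9 (0.0287 to 0.260). Slow troponin T, Tnnt1, was 2.08, 0.907 and 1.99 CPM in the 3 libraries against 0.463 to 0.796 CPM.

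CAL replicate 1 was thus the only one of the 12 libraries with Myh7 above 1 CPM. Tnnc1, the troponin C of slow fibres and heart, was 1.81, 1.51 and 0.996 CPM against 0.792 to 1.68 in the 9, and Casq2 was 0.984, 0.445 and 0.467 CPM against 0.154 to 1.63. Embryonic myosin Myh3 was 3.44, 1.12 and 2.32 CPM in the 3 libraries, and control replicate 2 reached 2.02 CPM. The fast myosin heavy chains Myh1, Myh2 and Myh4, muscle creatine kinase Ckm, the satellite cell factor Pax7 and the myogenic factor Myod1 were not analysed here, so the label of skeletal muscle rests on the sarcomere, calcium and energy genes named above.

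**Figure D3:**
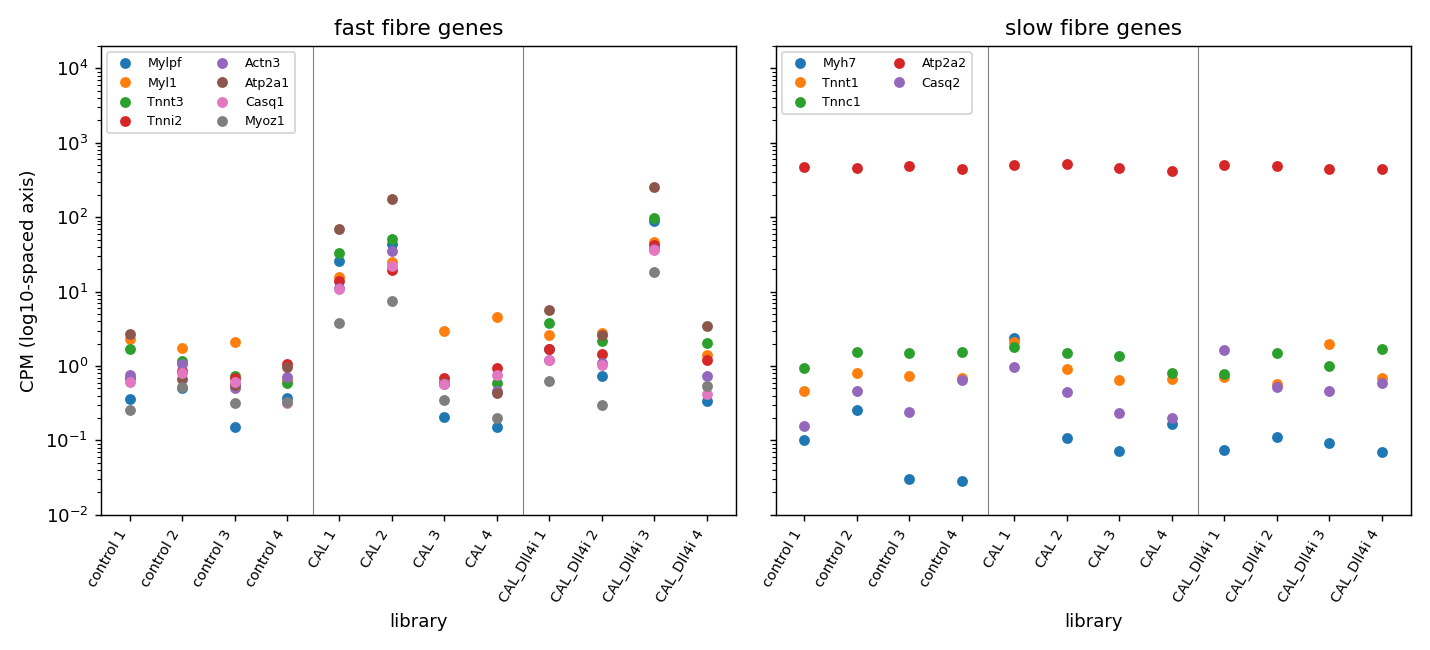
CPM on a log10-spaced axis in each of the 12 libraries (grey lines divide the groups) for the 8 measured genes of the fast fibre list (left) and the 5 of the slow fibre list (right). The fast genes stand high in CAL 1, CAL 2 and CAL_Dll4i 3, while among the slow genes Myh7 stands out only in CAL 1, at 2.40 CPM.

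The other lists were read by how many of their measured genes had all 3 libraries above all of the other 9, which 2.12% of all 19547 genes did. The counts use the contrast that chose the 29 genes and so describe the 3 libraries only. They were 6 of 8 for the thick filament, 11 of 14 for the thin filament, 13 of 16 for the Z-disc, 11 of 17 for calcium release and excitation, 9 of 17 for energy supply and 4 of 7 for protein turnover. For the neuromuscular junction and membrane they were 2 of 14, one of them dystrophin, Dmd, at 40.9, 37.1 and 61.3 CPM against at most 31.4 CPM. They were 1 of 6 for myogenic and satellite cell genes, and none of the 4 measured embryonic and regenerating fibre genes or of the 6 cardiac genes.

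Most lists of neighbouring tissues had no gene with this pattern. None of 9 Schwann cell, 6 tendon, 10 adipocyte, 7 keratinocyte, 5 gland epithelium or 6 macrophage genes had all 3 libraries above the 9, and 2 of 7 smooth muscle, 2 of 8 brown fat and 1 of 8 endothelial genes did. The brown fat genes were Cpt1b and Cox7a1, both also known from muscle, and the list summed to 41.3, 43.9 and 61.1 CPM in the 3 libraries, with CAL_Dll4i replicate 3 the highest of the 12, and to 30.2 to 48.9 CPM in the 9. The adipocyte genes summed to 1659 to 2219 CPM in the 3 libraries and 808 to 2595 CPM in the 9. The smooth muscle genes summed to 148 to 171 CPM against 128 to 181 CPM, and the endothelial genes to 312 to 415 CPM against 246 to 431 CPM. Keratinocyte genes summed to only 11.9 to 16.6 CPM in the 3 libraries and to 10.5 to 504 CPM in the 9, and the basal keratin Krt5 was 0.374 to 2.38 CPM against 0.0857 to 152 CPM. The part of skin or other neighbouring tissue in the level of the 29 genes was not tested.

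**Figure D4:**
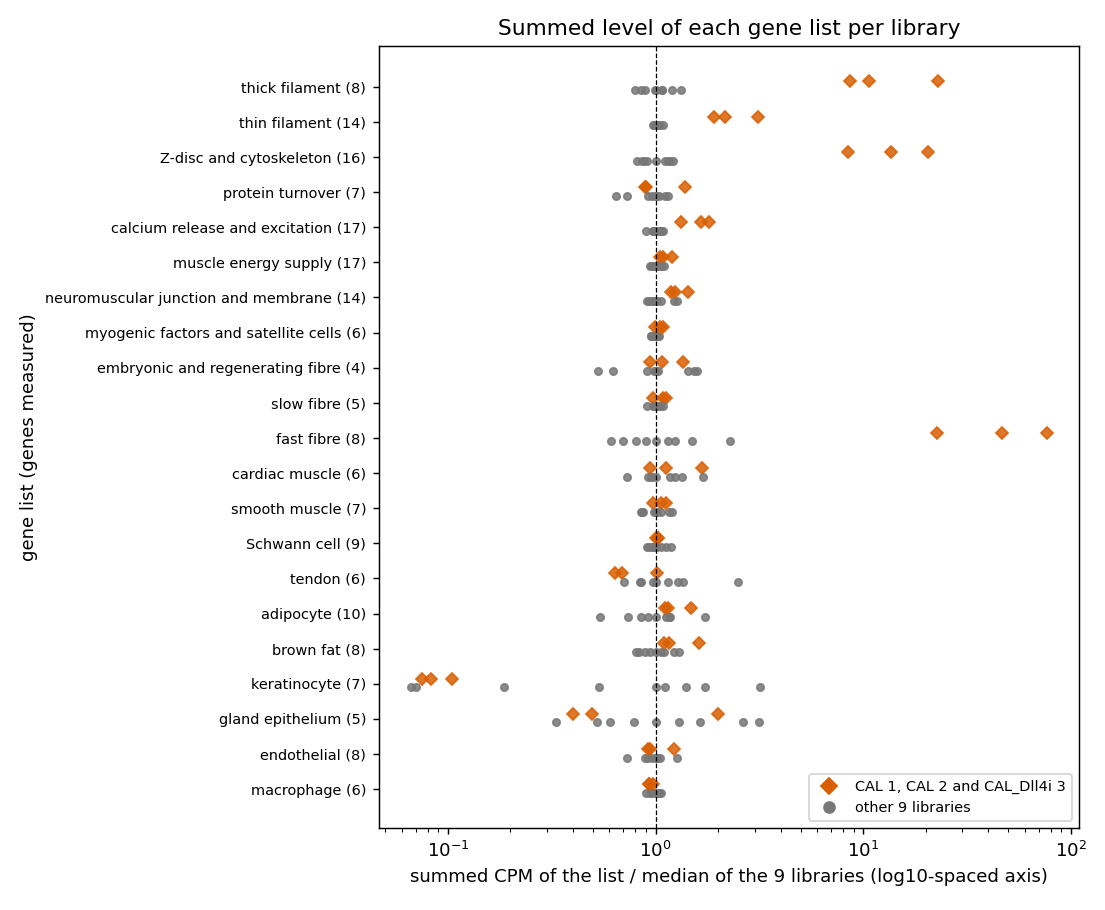
Summed CPM of each of 21 gene lists in every library, divided by the median of the 9 other libraries, on a log10-spaced axis; diamonds are CAL 1, CAL 2 and CAL_Dll4i 3, circles the other 9, and the number of genes measured stands in brackets. The diamonds are set apart for the fast fibre, thick filament and Z-disc lists, and lie among or near the circles for adipocyte, Schwann cell and macrophage lists.

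Compared by group, the 29 genes were higher on average in both ASC groups than in controls, but with a spread as wide as the means. Their summed share of counts was 0.0199% ± 0.00821 (SD, n = 4) in control, 0.204% ± 0.226 in CAL and 0.209% ± 0.365 in CAL_Dll4i. Ttn, for example, was 117 ± 63.1 CPM in control, 1428 ± 1622 CPM in CAL and 1395 ± 2475 CPM in CAL_Dll4i (SD, n = 4 each). In the edgeR quasi-likelihood test over 18551 genes, which all 29 entered, none of the 29 passed 0.05 after Benjamini-Hochberg adjustment in any of the 3 comparisons. The test called 0.00539% of all genes in CAL against control and 0% in the other 2 comparisons.

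In CAL against control all 29 estimates were higher in CAL. Their median log2 fold change was 2.93, and 12 had an unadjusted p under 0.05 (7.01% of all genes were higher at that level). The largest estimate was that of Atp2a1, at 5.68 (SE 2.28, edgeR adjusted p = 0.300). By DESeq2, 3 of the 29 genes were called in this comparison, Atp2a1 (adjusted p = 0.0267), Mylpf (0.0300) and Acta1 (0.0471), where DESeq2 called 3.59% of the genes it tested. In the other 2 comparisons DESeq2 called none of the 29, and 0.0058% of its genes in CAL_Dll4i against CAL and 0.332% in CAL_Dll4i against control. In CAL_Dll4i against control all 29 estimates were higher in CAL_Dll4i, with a median of 3.55, and 24 had an unadjusted p under 0.05 (3.86% of all genes), with a smallest edgeR adjusted p of 0.714. Both comparisons share the 4 control libraries, and the genes were chosen for being high in libraries of CAL and CAL_Dll4i, so nothing is read from these counts. Single libraries moved them widely: the 12 became 0 without CAL replicate 2 or without control replicate 2, 3 or 4 and 27 without CAL_Dll4i replicate 3, and the 24 became 0 without CAL_Dll4i replicate 3, 4, 3, 2 and 2 without control replicates 1 to 4, 15 without CAL replicate 1 and 28 without any other CAL_Dll4i library. The 12 also became 1 without control replicate 1 or CAL replicate 1.

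Between the 2 ASC groups no gene of the 29 was called. The estimates of CAL_Dll4i against CAL were higher for 27 of 29 genes, all but Actn3 and Ryr1. The median log2 fold change was 0.38, and there was no unadjusted p under 0.05 (7.42% of all genes). The direction depended on the libraries and on the fit. Without CAL replicate 3 or CAL replicate 4, 16 and 15 of 29 were higher, each with a median of 0.03, and with voom weights on all 12 libraries 2 of 29 were higher, with a median of -0.76. Without CAL_Dll4i replicate 3, 0 of 29 were higher, with a median of -2.54, which the choice of CAL replicates 1 and 2 as high libraries fixed. Dll4 itself was 5.60, 5.75, 7.04 and 5.09 CPM in controls, 4.19, 4.18, 3.56 and 3.04 CPM in CAL, and 4.81, 3.97, 4.28 and 4.21 CPM in CAL_Dll4i. Its log2 fold change in CAL_Dll4i against CAL was 0.25 (SE 0.14, edgeR adjusted p = 0.713), which for an inhibition of unknown kind checks no label.

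In the 9 libraries outside the 3, the genes were low but not level. CAL_Dll4i replicate 1 was the highest of the 9 for 16 of the 29 genes. Without Ttn and Neb, the 29 genes summed to 57.1 CPM in CAL_Dll4i replicate 1, 42.8 in CAL_Dll4i replicate 2 and 43.2 in CAL_Dll4i replicate 4, to 26.6 to 35.9 CPM in the 4 controls and to 29.1 and 34.6 CPM in the 2 CAL libraries, inside the range of the controls. With Ttn and Neb included the libraries overlapped: the sum was 308, 191 and 284 CPM in CAL_Dll4i replicates 1, 2 and 4, 182 and 192 CPM in CAL and 104 to 279.6 CPM in controls. All 3 of these CAL_Dll4i libraries lay above both CAL libraries for 13 of the 29 genes, against 12.2% of all genes. With the 3 libraries left out, edgeR over 18690 genes gave estimates higher in CAL_Dll4i than in CAL for 26 of 29 genes, all but Smyd1, Myl1 and Ldb3, with a median log2 fold change of 0.67. Of these, 10 had an unadjusted p under 0.05, against 5.91% of all genes, and none passed the adjusted threshold, the smallest adjusted p being 0.392. The 29 genes were chosen for a shared pattern over the libraries, so they are not replicates of a condition, and these counts of genes weigh none.

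For CAL_Dll4i against CAL in these 9 libraries, the smallest unadjusted p among the 29 belonged to Mybpc1, Tnnt3 and Atp2a1. Mybpc1 differed by 3.73 (SE 0.74, edgeR adjusted p = 0.392) on the log2 scale in CAL_Dll4i against CAL, Atp2a1 by 2.98 (SE 0.76, adjusted p = 0.392) and Tnnt3 by 2.21 (SE 0.49, adjusted p = 0.392), with 3 libraries against 2. Against the 4 controls, CAL_Dll4i gave higher estimates for 27 of 29 genes, with a median of 0.52, 9 unadjusted p under 0.05 (3.38% of all genes were higher at that level) and a smallest edgeR adjusted p of 0.768. CAL against control lost its direction without the 3 libraries: 12 of 29 estimates were higher, the median was -0.06, 2 genes were higher and 3 lower at an unadjusted p under 0.05 (4.68% and 4.85% of all genes), and the smallest edgeR adjusted p was 0.380. The rule capped these 9 libraries for every gene and chose genes that share a pattern, so the values describe them only.

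Keratinocyte genes were also uneven in the 9 libraries. Krt5 was 152, 55.1 and 57.5 CPM in the 3 CAL_Dll4i libraries, 25.5 and 0.721 CPM in the 2 CAL libraries and 0.0857, 57.1, 6.34 and 102 CPM in controls. CAL_Dll4i replicate 1 was the highest of the 9 both for Krt5 and for 16 of the 29 genes. In control replicates 1 to 4 the 29 genes without Ttn and Neb summed to 35.9, 31.9, 26.6 and 29.8 CPM, in another order than Krt5. Whether the level of the 29 genes in the 9 libraries moved with keratinocyte markers was not tested.

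**Figure D5:**
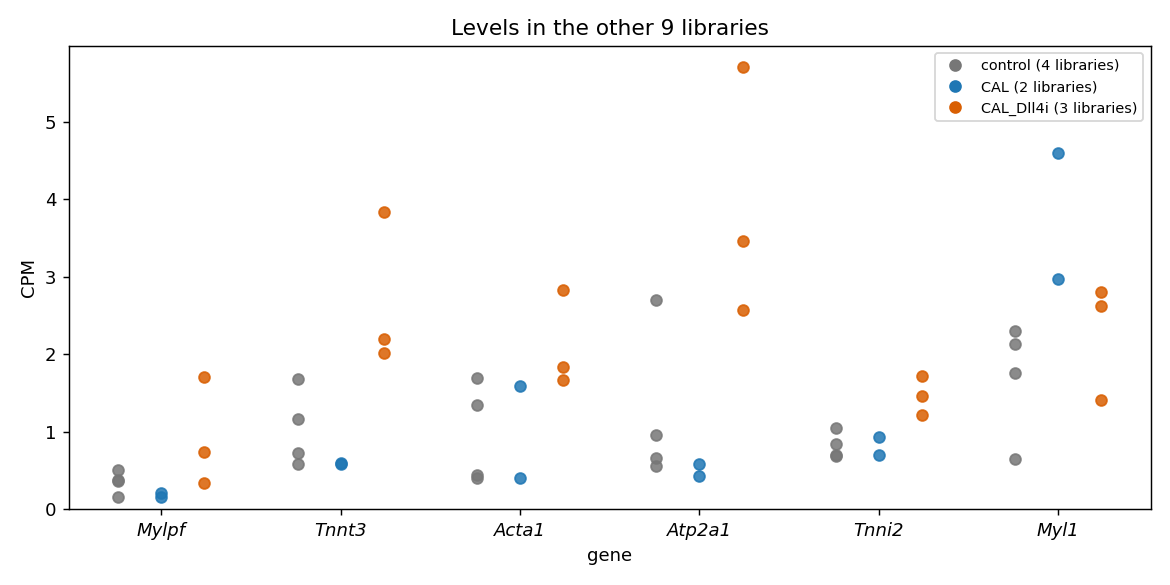
CPM in the 9 libraries outside the 3 for the 6 genes with the highest TPM in CAL_Dll4i replicate 3; each point is 1 library, coloured by group, with 4 control, 2 CAL and 3 CAL_Dll4i libraries. For Tnnt3 and Tnni2 the 3 CAL_Dll4i points lie above all others, and for Myl1 the 2 CAL points are the highest.

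At the threshold of the rule the genes formed a continuous series. Just inside were Lmod3 at 3.01-fold, Smyd1 and Mylk2 at 3.02-fold and Ldb3 at 3.05-fold, and just outside were Txlnb at 2.80-fold, Myo18b at 2.65-fold, Scn4a at 2.63-fold and Srl at 2.59-fold. Over the 29 genes this fold had a median of 6.67. Lowering the fold to 2 added 12 genes, which, named after their values were seen, were Alpk3, Asb5, Cap2, Cmya5, Cox6a2, Eno3, Myo18b, Nrap, Rtn2, Scn4a, Srl and Txlnb. A further 3 genes, Synpo2l, Arpp21 and Hspb3, had a fold above 3 but a mean under 1 CPM. Among genes that are not protein-coding and had a mean of at least 1 CPM, only the immunoglobulin segment Igkv6-13 reached a fold of 2, at 2.56-fold.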

How the data were processed

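Per the labels' protocols, Trizol was used for extraction and a SureSelectXT RNA Direct kit for the libraries. Alignment with HISAT2 and assembly with StringTie on mm10 are named, without versions, in the submitters' processing notes. The authors deposited, per the file headers, an estimated count, an FPKM and a TPM for each of 19547 genes in each of 12 libraries. The estimated counts deposited are whole numbers, not scaled between libraries, and every one is above 0; genes outside the table were not analysed here. The deposited TPM served to compare levels between genes, and the deposited FPKM, scaled by the authors for length and depth, was not used. Whether the library kit recovered all genes equally well was not tested, so ranks between genes carry that limit.

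Of the 29 genes, 1 is counted in the totals and is not reported here by itself. The 29 genes and the gene lists were chosen with earlier results of these data known. CPM was the count over the column sum. Groups follow the labels. edgeR 4.0.16 (R 4.3.3, TMM, filterByExpr, robust quasi-likelihood fit, 1 coefficient per group, all 12 libraries) tested 18551 genes. Adjustment was by Benjamini-Hochberg, with a threshold of 0.05. The fit was run on simulated data in which every library of a group changed alike, unlike the pattern of the 29 genes. Alternatives were RLE scaling, DESeq2 1.42.0, no filter, the replicate number as a block, each library left out, the 3 high libraries left out and, chosen after seeing the data, voom with sample weights in limma 3.58.1; for the rule, TMM-normalised CPM, TPM, other folds, no minimum and every biotype.

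Ratios between 2 libraries carry exact 95% intervals from the counts. No libraries were near-identical. Genes named were the members, up to 8 per role list by mean CPM, up to 5 other genes per list, both fibre lists in full, the 4 nearest the threshold on each side, the 4 highest and lowest ratios, and Dll4; others are said to be chosen later. Promoters and positions are from RefSeq tables of GRCm38.p6; motifs were searched on both strands. Figures were drawn with matplotlib 3.10.9.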

Additional observations from a re-analysis of the deposited data

Results flagged for a closer look

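In each group of 4 libraries, the gap of the highest or lowest library to its nearest neighbour was divided by the range of the group and set against Dixon's 95% critical value for 4 samples. Chance passes it in about 1 in 20 groups of unrelated values. Here 52 of 162 groups of values passed it. Most of the genes were chosen by the rule or for being muscle genes like them, so no excess over chance is read from this. CAL_Dll4i replicate 3 stood apart at the top of its group for all 28 genes named here, which the rule favoured by choosing that library as high, and for their summed CPM (0.984). Among these the thick filament genes gave 0.992 for Myom1, 0.985 for Mylpf, 0.981 for Mybpc1, 0.969 for Myl1 and Mylk2 and 0.974 for Myom3. The thin filament genes gave 0.994 for Klhl41, 0.991 for Acta1 and Tmod4, 0.988 for Tnni2, 0.981 for Tnnt3, 0.980 for Neb and 0.963 for Lmod3. At the Z-disc the values were 0.987 for Actn3, 0.983 for Ttn, 0.982 for Ldb3, 0.981 for Myoz1 and 0.971 for Actn2. The calcium genes gave 0.993 for Ryr1, 0.988 for Atp2a1, 0.979 for Cacna1s and 0.978 for Casq1, and Pygm and Ampd1 gave 0.979. The last 4 were Apobec2 at 0.989, Rbfox1 at 0.984, 3425401B19Rik at 0.957 and Smyd1 at 0.945.

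The same library was the highest of its group for genes outside the 29. These were Txlnb at 0.982, Myo18b at 0.981, Dmd at 0.978, Myh3 at 0.971, Cox6a2 at 0.970, Tpm2 at 0.967, Fhl1 at 0.964, Eno3 at 0.960, Srl at 0.956, Nrap at 0.943, Scn4a at 0.927, Des at 0.906, Cmya5 at 0.905, Tnnt1 at 0.903, Tpm1 at 0.862 and Pfkm at 0.855. Of these, Txlnb, Myo18b, Scn4a and Srl were named for lying just under the threshold of the rule. The others belong to the muscle gene lists, so none was chosen apart from muscle genes like the 29. In CAL_Dll4i replicate 1, Casq2 was the highest of its group (0.891). No such gap arose in CAL for any of these 28 genes, since 2 of its 4 libraries were high; there, Myh7 stood apart in CAL replicate 1 (0.959) and Krt5 in CAL replicate 3 (0.933).

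In controls, Ampd1 highest in replicate 4 (0.883), Apobec2 highest in replicate 1 (0.841), Flnc highest in replicate 3 (0.882) and Tnnc1 lowest in replicate 1 (0.910).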

How the results depend on the processing

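In CAL against control edgeR called 1 gene. DESeq2 called 619, voom with sample weights, chosen after seeing the data, 72, and the fit without the 3 high libraries 0; leaving out each library gave 0 to 6. In CAL_Dll4i against CAL and in CAL_Dll4i against control edgeR called 0 genes (1377 and 1284 at an unadjusted p under 0.05), and DESeq2 called 1 and 61. Of the 29 genes, DESeq2 called 3 in CAL against control; the other settings tried called 0 in every comparison. The cause of these differences was not tested. The same-numbered libraries did not deviate together (12 pairs, r from -0.39 to 0.14, 2 over 0.1). Pairs of different number ran from -0.31 to 0.44 (36 pairs, 15 over 0.1). The main fit therefore used no pairing, though so few libraries cannot exclude one. With the replicate block the counts of calls were 1, 0 and 0, and of the 29 genes 1, 0 and 0 had an unadjusted p under 0.05, in place of 12, 0 and 24. In CAL_Dll4i against CAL, 2 of 29 estimates were higher with the block (median log2 fold change -0.49) and 2 with voom weights (-0.76), in place of 27. A fold of 5 left 19 genes. TMM-normalised CPM left 26, TPM gave 29 (28 shared, with Srl in place of Smyd1), and leaving out each library gave 23 to 31. The summed share in CAL replicate 1, 0.296%, became 0.285% of the TMM-scaled library, 0.317% of protein-coding counts and 0.293% without Acta1. In CAL replicate 2, 0.481% became 0.485%, 0.530% and 0.473%, and in CAL_Dll4i replicate 3, 0.757% became 0.769%, 0.838% and 0.745%. Depth limits the lowest genes in the low libraries, where counts fell to 4.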
